A study of Mus musculus with 4 samples.

Results

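The 10 amino acid transporter genes described here were measured in induced hepatocyte-like (iHep) cells, which are mouse cells turned towards a hepatocyte fate from another cell type. The genes were Slc7a1, Slc7a2, Slc7a3, Slc7a5, Slc7a8, Slc3a2, Slc38a1, Slc38a2, Slc38a4 and Slc1a5, found by the gene name of each array probe. They have 20 probes of the 41174 on the array, and all 10 were among the 16450 genes tested of 27975 named. The cells were of strain C57BL/6 and, per the labels, derived from cells named MDFs, a term that is not spelled out there. They were grown in 3D culture or in 2D culture. Both cultures were made once in each of 2 experiments named iHep-1 and iHep-2, which gives 4 arrays. A plus sign stands in the title of every 2D array and of no 3D array, is not explained, and cannot be told apart from culture.

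Amino acids cross the cell membrane through carriers that differ in what they move and where they are made. Slc7a5 forms a heterodimer with the heavy chain Slc3a2 and exchanges large neutral amino acids such as leucine for glutamine. Slc1a5 brings in glutamine, and Slc7a1 and Slc7a3 bring in arginine and lysine. These carriers, with Slc38a1, are prominent in growing and embryonic cells and are called growth-type here. Adult hepatocytes take up arginine mainly through Slc7a2 and small neutral amino acids through Slc38a4, which are called hepatic here. Slc38a2 is a widely made sodium-coupled carrier that cells raise when amino acids are short. Slc7a8 is an exchanger of neutral amino acids of epithelia that also pairs with Slc3a2.

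Each measurement is the brightness of an oligonucleotide probe of 60 bases. The first 30 bases of 4 probes are shown 5′ to 3′ because the results turn on them: the brightest probes of Slc7a5 and Slc38a4, and a pair of Slc38a2 probes that gave different answers. Their mm9 positions, all on the minus strand, follow.
Slc7a5, chr8:124405142-124405201: agtgctgtggttgtaatgtcttttactatt
Slc38a4, chr15:96825482-96825541: ctaacctggaagtatccacttgtgtagtta
Slc38a2, brightest probe, chr15:96518491-96518550: aaggttccaaatgaatttcaggccaaattc
Slc38a2, probe A_52_P459046, chr15:96528513-96528572: caaagaatagtgttacttttagatttcaaa

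Levels below are log2 of the processed signal minus the array's 75th percentile, so 0 is the brightness of the probe at that percentile. They compare arrays for 1 probe and not 1 gene with another. The 75th percentile was 594.4 and 398.8 intensity units in 3D and 523.3 and 616.0 in 2D, for iHep-1 and iHep-2 in that order. Hepatocyte markers were well above background on every array (7 of 7 on the array), with summed intensities of 533355 and 604848 in 3D and 451210 and 405246 in 2D. The marker sums here and below were not scaled to the 75th percentile, so they do not compare arrays directly. Fibroblast markers numbered 4 of 7 on the 3D array of iHep-1 and 2 of 7 on each other array, and Dcn, Lum and Thy1 were well above background on none. Pdgfra and Col1a2 were well above background on all 4 arrays. Pdgfra stood at 2.80 and 2.91 in 3D and at 2.15 and 2.25 in 2D. Col1a2 stood at -2.33 and -3.46 in 3D and at -3.56 and -3.67 in 2D. The summed intensities of the fibroblast markers were 4357 and 3038 in 3D and 2385 and 3001 in 2D. Cholangiocyte markers were found 5 of 5 on every array, with sums of 15047 and 11992 in 3D and 8399 and 28811 in 2D. Macrophage markers were found 2 of 4, without Ptprc, with sums of 88 and 32 in 3D and 40 and 92 in 2D. Endothelial markers were found 0 or 1 of 4, without Kdr and Pecam1, with sums of 29 and 24 in 3D and 65 and 58 in 2D. The part of other cell types in the transporter values was not tested, and fewer cells of a type cannot be told apart from less RNA per cell. Nothing in the labels says that the cells of an experiment came from separate animals, so p-values measure only the spread between these arrays.

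Of the 6 growth-type carriers, 5 were lower in 3D than in 2D in both experiments, while Slc38a4 and Slc7a8 were higher, which turned in iHep-1 when arrays were scaled to spike-in controls. Of the 10 genes, 7 were lower in 3D in both experiments, against 33.0% of all genes tested, and 2 were higher in both, against 33.2%, of which Slc38a4 was not well above background in iHep-2. Lower by at least 2-fold in both experiments were 3 of the 10 (Slc7a1, Slc7a3 and Slc7a5), against 2.13% of all genes. The measured values were higher by as much for 2 (Slc38a4 and Slc7a8), against 4.26%. Slc38a4 was not well above background in iHep-2, nor was Slc7a8 in 2D of iHep-2. The median difference of the 6 growth-type carriers was -1.10 in iHep-1 and -2.18 in iHep-2 (log2, 3D minus 2D), beside -0.02 and 0.04 for all genes. Over both experiments it was -1.64, and -2.49 without the 2D array of iHep-1. None of the 10 passed the adjusted threshold of 0.05 in limma, and neither did any other gene (percent called 0 in each direction, smallest adjusted p = 0.496). At an unadjusted p under 0.05, 667 genes (4.05%) were higher and 490 (2.98%) lower in 3D, and Slc7a1, Slc7a5 and Slc38a2 were among the lower ones. This fit does not use the pairing of the arrays by experiment. With the experiment as a block, 1373 of the 16450 genes tested were higher and 805 lower at an unadjusted p under 0.05 (limma). Among them were Slc7a1, Slc7a3 and Slc7a5 as lower and Slc38a4 and Slc7a8 as higher, while Slc38a2 was at 0.057. The p-values of Slc38a4 and Slc7a8 rest in part on iHep-2 signals not well above background. No gene passed the adjusted threshold with the block either. All culture differences below are therefore descriptions of 2 experiments. Scaling to spike-in controls in place of the 75th percentile shifted the median of all genes to -1.08, with -1.69 in iHep-1 and -0.49 in iHep-2. With it, all 6 growth-type carriers were lower in 3D in both experiments, as were 73.6% of all genes, while in iHep-1 Slc38a4 gave -0.62 and Slc7a8 -0.29.

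**Figure D1:**
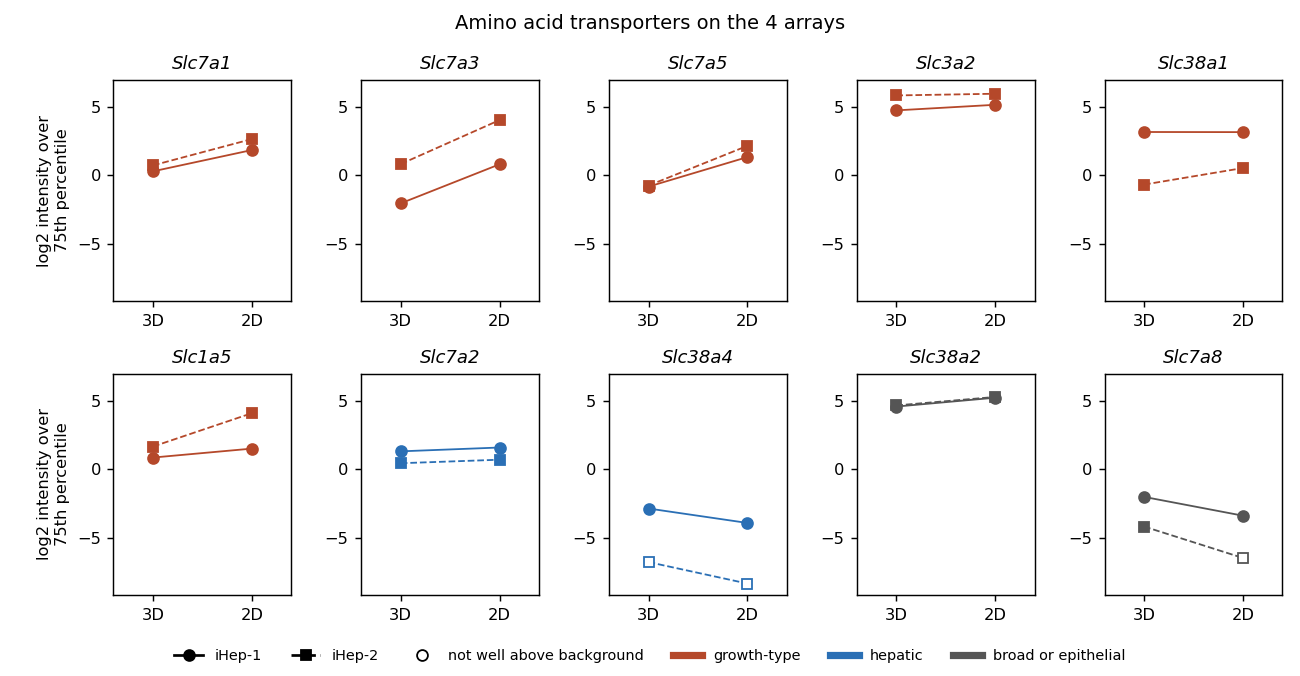
Level of each of the 10 transporters on the 4 arrays (y axis, log2 intensity over the array's 75th percentile), 3D left and 2D right. Circles with solid lines are iHep-1, squares with dashed lines iHep-2, 1 array per point, and open symbols are not well above background. Slc7a1, Slc7a5 and Slc38a2 lie lower in 3D in both experiments without overlap, and Slc38a4 and Slc7a8 slope the other way, although not in iHep-1 with spike-in scaling.

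Slc7a5, the light chain of the leucine exchanger, stood at -0.81 and -0.74 in 3D (iHep-1, iHep-2) and at 1.34 and 2.16 in 2D. Both 3D arrays were below both 2D arrays, and the 3D arrays were nearly equal. The means were -0.77 ± 0.06 in 3D and 1.75 ± 0.58 in 2D (SD, n = 2 each). The difference was -2.53 with a standard error of 0.37 (limma, adjusted p = 0.684), which is 4.47-fold lower in 3D of iHep-1 and 7.46-fold lower in 3D of iHep-2. It ranked number 79 of the 16450 genes by p.

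Slc3a2, the heavy chain shared by Slc7a5 and Slc7a8, stood at 4.76 and 5.85 in 3D and at 5.17 and 5.98 in 2D. The cultures overlapped. Its differences were -0.41 in iHep-1 and -0.12 in iHep-2, and its second probe gave -0.68 and -0.46. The heavy chain thus differed by 1.33-fold at most on its brighter probe, where its partner Slc7a5 differed by 4.47-fold or more, and this contrast between the chains was not tested.

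Slc7a1, the widely made carrier of arginine and lysine, stood at 0.30 and 0.74 in 3D and at 1.86 and 2.66 in 2D. Neither 3D array reached a 2D array. The difference was -1.74 with a standard error of 0.40 (limma, adjusted p = 0.684), with -1.56 in iHep-1 and -1.92 in iHep-2. Its second probe was much dimmer, at 12.9 and 11.8 intensity units in 3D and 16.9 and 28.7 in 2D, and gave -0.57 and -0.66. Both probes had the same direction, but the dim one gave a smaller difference. Of the brighter probe's 60 bases, the file places 34 on the genome (chr5:149138970-149139003, mm9).

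Slc7a3, an arginine and lysine carrier best known from brain and embryonic cells, stood at -2.04 and 0.84 in 3D and at 0.82 and 4.05 in 2D. In intensity units these were 145 and 712 (3D) and 924 and 10227 (2D). On the log2 scale the 3D array of iHep-2 was level with the 2D array of iHep-1, so the cultures overlapped although both experiments had lower values in 3D. The differences were -2.86 in iHep-1 and -3.22 in iHep-2, or 7.24-fold and 9.29-fold lower in 3D. These were the most negative of the 10 genes in each experiment. The spread between experiments left this difference at an adjusted p of 0.706 (limma without a block, 0.193 with the experiment as a block).

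Slc1a5, the glutamine carrier, stood at 0.86 and 1.66 in 3D and at 1.51 and 4.10 in 2D. Only the 2D array of iHep-2 stood clearly apart. The difference was -0.65 in iHep-1 and -2.44 in iHep-2, that is 1.57-fold and 5.42-fold lower in 3D (limma, adjusted p = 0.737).

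Slc38a1, a sodium-coupled glutamine carrier, stood at 3.18 and -0.67 in 3D and at 3.17 and 0.54 in 2D. It was nearly equal in both cultures of iHep-1 and lower in 3D of iHep-2, with differences of 0.01 and -1.21. Its 5 probes gave 0.01 to 0.24 in iHep-1 and -1.39 to -1.04 in iHep-2, so the direction did not depend on the probe. Probes A_51_P133005, A_51_P489788 and A_52_P430462 were designed on another transcript and lie nearby, between chr15:96402059 and 96402734 (mm9). One of the 5 probes, A_52_P232648, was not well above background in 3D of iHep-2. Among all genes, 33.8% differed in opposite directions in the 2 experiments.

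Slc38a4, the sodium-coupled carrier of adult liver, stood in iHep-1 at -2.87 in 3D and at -3.92 in 2D. In intensity units this is 81.3 (3D) and 34.5 (2D), a difference of 1.05 or 2.08-fold higher in 3D (-0.62 with spike-in scaling). In iHep-2 its signal was 3.6 units in 3D and 1.9 in 2D, not well above background in either culture, so no fold is given there. The culture difference of Slc38a4 therefore rests on iHep-1. Its second probe, whose 60 bases span 2676 bases of the genome, was well above background only in 3D of iHep-1.

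Slc7a2, the arginine carrier of hepatocytes, stood at 1.31 and 0.44 in 3D and at 1.59 and 0.70 in 2D. It was slightly lower in 3D in both experiments, with differences of -0.28 and -0.26, and the cultures overlapped (limma, adjusted p = 0.906). The hepatic pair thus went in opposite directions, Slc38a4 higher and Slc7a2 slightly lower, and their median of 0.52 describes neither. That median was -0.27 when probes had to be well above background on every array, which leaves Slc7a2 alone.

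Slc38a2, the carrier that cells raise when amino acids are short, stood at 4.59 and 4.67 in 3D and at 5.23 and 5.29 in 2D. The arrays of a culture lay close together and the cultures did not overlap. The difference was -0.63 with a standard error of 0.21 (limma, adjusted p = 0.684), or 1.57-fold lower in 3D of iHep-1 and 1.54-fold lower in 3D of iHep-2. Its 4 probes all gave lower values in 3D of iHep-1, from -0.87 to -0.58. In iHep-2 they ranged from -0.62 to 0.24, and the higher end came from the probe A_52_P459046 shown above, with A_51_P199314 at -0.02. Both of these were designed on another transcript of the gene and lie at chr15:96527422-96528572 (mm9), apart from the brightest probe.

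Slc7a8, the epithelial exchanger of neutral amino acids, stood at -2.02 and -4.19 in 3D and at -3.39 and -6.48 in 2D. In intensity units this is 147 and 21.9 in 3D and 49.8 and 6.9 in 2D, and the last was not well above background. It was higher in 3D in both experiments, by 1.37 and 2.30 (-0.29 and 1.76 with spike-in scaling), but the experiments lay so far apart that the cultures overlapped (limma, adjusted p = 0.768). Slc7a8 and Slc7a5 share the partner Slc3a2, and they differed in opposite directions in both experiments, except in iHep-1 with spike-in scaling.

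**Figure D2:**
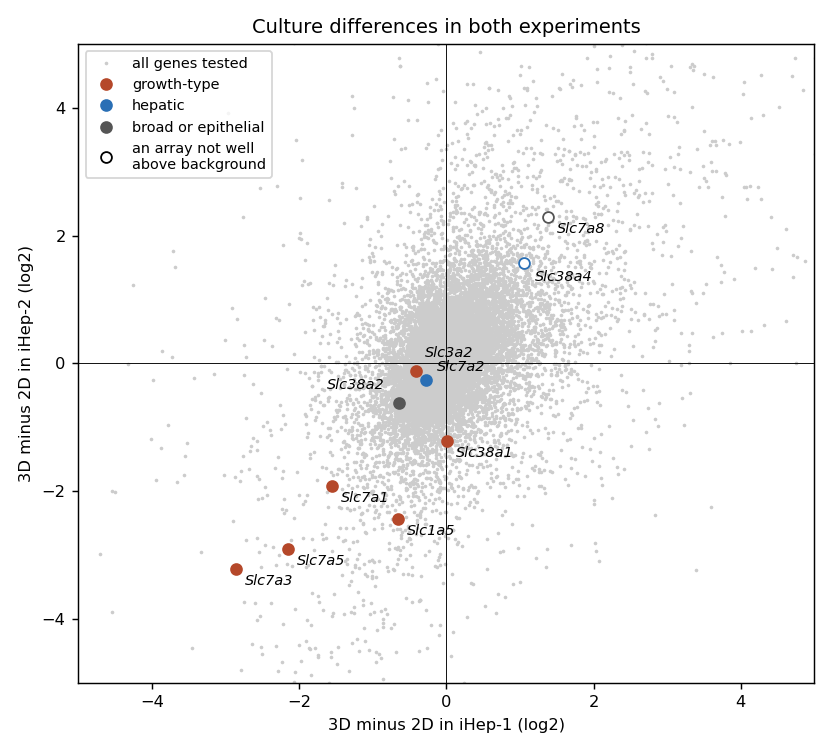
Difference between 3D and 2D (log2, 3D minus 2D) in iHep-1 (x axis) and iHep-2 (y axis) for all genes tested (grey) and the 10 transporters (coloured by type, open where an array was not well above background). The axes end at 5 log2 units and leave out genes beyond them. Slc7a1, Slc7a3 and Slc7a5 lie in the lower left and Slc38a4 and Slc7a8 in the upper right (left of 0 with spike-in scaling), while Slc38a1 lies on the vertical axis at -1.21.

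**Figure D3:**
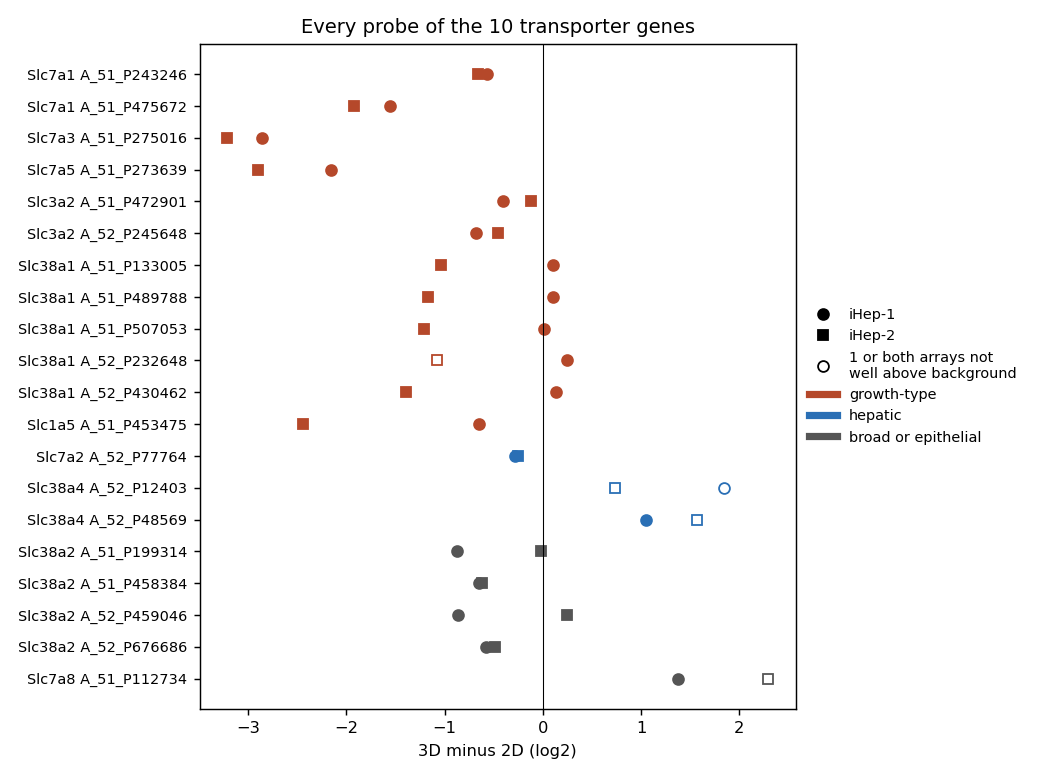
Difference between 3D and 2D (log2, x axis) for each of the 20 probes, with a circle for iHep-1 and a square for iHep-2, open where 1 or both arrays of the experiment were not well above background. The 5 probes of Slc38a1 repeat 1 pattern, while those of Slc38a2 part in iHep-2.

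Slc7a1, Slc7a5 and Slc38a2 were the 3 genes whose cultures did not overlap, all with lower values in 3D, where 21.5% of all genes also had lower values without overlap. No transporter was higher in 3D without overlap, against 19.8% of all genes. The experiments divided more of the transporters than the cultures did. For 7 of 10 the mean difference between iHep-2 and iHep-1 was larger than that between 3D and 2D, as it was for 49.6% of all genes. Slc38a4, counted on the side of the experiments in both respects, passed the filter on dim probes only through its iHep-1 arrays, which fixed its direction.

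Between the experiments, Slc7a3 was the 1 transporter well above background on all 4 arrays that passed the adjusted threshold. It was higher in iHep-2 by 2.87 in 3D and by 3.23 in 2D, or 7.33-fold and 9.41-fold (limma with culture as a term, difference 3.05, standard error 0.24, adjusted p = 0.045). Each experiment gave 1 array per culture, so this p-value rests on how alike the 3D and 2D differences were. It does not rest on repeats of an experiment, and without culture as a term it was 0.566 (limma, adjusted). Higher in iHep-2 were 141 genes, 0.857% of those tested. Slc38a4 was lower in iHep-2, with 3.6 intensity units in 3D of iHep-2 against 81.3 in 3D of iHep-1, and 1.9 in 2D of iHep-2 against 34.5 in 2D of iHep-1. Since it was not well above background in iHep-2, this is a bound of at least 5.63-fold brighter in iHep-1 (measured means -7.57 in iHep-2 and -3.40 in iHep-1). The fit gave it an adjusted p of 0.042, but the gene passed the filter on dim probes only through the iHep-1 arrays, which fixed the direction, so that call is not counted as a result. The fit called 162 genes lower in iHep-2, 0.985%. For the bound, each iHep-2 array was set to its lowest signal well above background, or to the probe itself where that was brighter. Normexp background correction, which adds 50 units to each signal and so shrinks the differences of dim probes, gave Slc38a4 -0.76 (limma, adjusted p = 0.203). Adjusted p ran from 1.1e-05 to 0.203 among the alternatives. The lower end came from spike-in scaling, whose p-values do not measure a gene's own spread.

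Slc38a1 was lower in iHep-2, with differences of -3.84 in 3D and -2.63 in 2D (adjusted p = 0.074), and its 5 probes gave -3.93 to -3.46 in 3D and -2.63 to -2.14 in 2D. Slc7a8 was lower in iHep-2 as well, with -2.17 in 3D and -3.09 in 2D, where 2D of iHep-2 was not well above background (adjusted p = 0.077). Both missed the threshold. With normexp background correction the difference of Slc7a8 was -0.91 between experiments and 0.84 between cultures, in place of -2.63 and 1.84. The 50 units added there make such differences of dim probes smaller by construction. Slc1a5 was higher in iHep-2 by 0.81 in 3D and by 2.59 in 2D (adjusted p = 0.269), Slc3a2 by 1.09 and 0.81 (adjusted p = 0.187), and Slc7a2 was lower, with -0.87 and -0.89 (adjusted p = 0.192). In all, the measured values of the experiments did not overlap for 7 transporters, Slc38a4 among them. Higher in iHep-2 were Slc7a3, Slc3a2 and Slc1a5, against 19.0% of all genes without overlap in that direction. Lower in iHep-2 were Slc38a1, Slc7a2 and Slc7a8, against 22.6%. Slc38a4 measured lower as well, but the filter on dim probes fixed its direction, so it is not counted as a result. By at least 2-fold in both cultures, Slc7a3 was higher in iHep-2 (5.12% of all genes) and Slc38a1 lower (5.74%), and Slc38a4 and Slc7a8 were lower with iHep-2 signals not well above background in both cultures or in 2D.

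**Figure D4:**
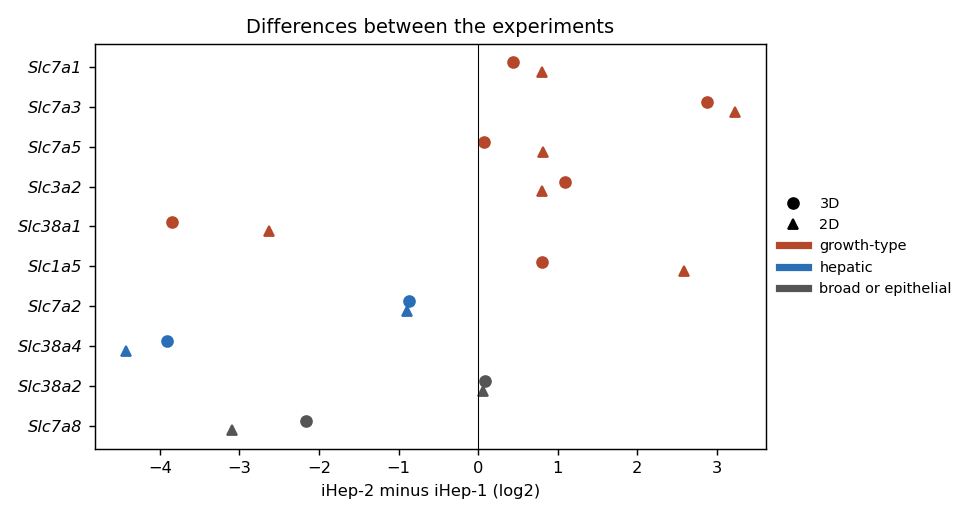
Difference between iHep-2 and iHep-1 (log2, x axis) for each transporter, with circles for 3D and triangles for 2D, coloured by type. Slc7a3 lies near 3 in both cultures, and Slc38a1, Slc38a4 and Slc7a8 lie below -2 in both. Slc38a4 in both cultures and Slc7a8 in 2D rest on iHep-2 arrays where they were not well above background.

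Slc38a1, Slc38a2 and Slc38a4 neighbour each other on chromosome 15. In the RefSeq gene table of GRCm38.p6, Slc38a2 is the only protein-coding gene between the other 2. On these arrays Slc38a1 was lower in iHep-2. Slc38a4 measured lower there too, but it passed the filter on dim probes only through its iHep-1 arrays, which fixed that direction. Slc38a2 between them differed by 0.08 in 3D and 0.06 in 2D on its brightest probe. Its 4 probes ranged from 0.08 to 0.88 in 3D and from -0.47 to 0.11 in 2D.

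The genes nearest to Slc7a5 by Euclidean distance of mean-centred log2 values over the 4 arrays were Trib3 (0.40), LOC100040465 (0.51) and Rasgrp3 (0.55). The nearest to Slc38a4 were Rarres2 (0.27), Rab37 (0.31) and Lrrc75b (0.33). Rarres2 had -4.26 in 3D and -4.52 in 2D between iHep-2 and iHep-1, and 1.27 and 1.54 between cultures. With 4 arrays such a likeness is a description only, and for Slc38a4 the distances and their order rest in part on its iHep-2 values, which were not well above background.

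ATF4 is a transcription factor that is translated when amino acids are short, and its targets include amino acid carriers and enzymes of amino acid synthesis. A list of 28 genes of this response, with none of the 10 transporters in it, was lower in 3D in both experiments for 25 genes and higher for 1, against 33.0% and 33.2% of all genes. By at least 2-fold, 9 of 28 were lower in both experiments, against 2.13%. The list's median difference was -0.89 (-1.99 with spike-in scaling), and none of its genes passed the adjusted threshold. Trib3, a pseudokinase of this response, stood at 2.94 and 3.42 in 3D and at 5.07 and 6.29 in 2D, with differences of -2.13 and -2.87. Ddit3, the transcription factor CHOP, gave -1.88 and -3.16, Vldlr, a lipoprotein receptor, -1.82 and -2.75, and Mthfd2, an enzyme of mitochondrial folate metabolism, -2.68 and -1.66. Atf4 itself gave -1.22 and -0.79. Asns, which makes asparagine, gave -0.73 and -0.21, so the differences within this list were of unequal size.

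Of 38 other amino acid carriers, 23 were tested. In both experiments 10 were higher and 5 lower in 3D, against 33.2% and 33.0% of all genes. Their median was 0.24, with 0.02 in iHep-1 and 0.46 in iHep-2, beside -0.02 and 0.04 for all genes. Spike-in scaling turned this to 1 higher and 13 lower, against 2.83% and 73.6% of all genes, with a median of -0.86, above the -1.08 of all genes. The measured values of 3 (Slc3a1, Slc6a19 and Slc1a1) were at least 2-fold higher in both, against 4.26% of all genes. Lower by as much were 0, against 2.13%. Slc3a1, the heavy chain of the cystine and dibasic amino acid carrier of kidney and gut, stood at -2.66 and 3.90 in 3D and at -4.49 and 0.17 in 2D, with differences of 1.83 and 3.73. Its partner Slc7a9 gave 0.66 and 0.71, but was well above background only in iHep-2. Slc6a19, a neutral amino acid carrier of kidney and gut, gave 1.0 and 4.52, with 2D of iHep-2 not well above background. Slc1a1, a glutamate carrier, gave 1.16 in iHep-1 and was not well above background in iHep-2.

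Of 13 enzymes that use the carried amino acids, 12 were tested. In both experiments 5 were higher and 4 lower in 3D, against 33.2% and 33.0% of all genes. With spike-in scaling these were 1 and 6, against 2.83% and 73.6%. Arg1, the arginase of the urea cycle, stood at 1.71 and 4.84 in 3D and at -4.20 and -4.36 in 2D, so the cultures lay far apart. Glul, glutamine synthetase, gave 1.14 and 1.53, and Asl, argininosuccinate lyase, 0.79 and 1.29. Bcat1, a branched-chain aminotransferase that adult liver largely lacks, gave -2.61 and -6.24, with 3D of iHep-1 not well above background. All 6 cell cycle genes were lower in 3D in both experiments, against 33.0% of all genes. Among them was Mki67 at -1.05 and -2.66 in 3D and 0.97 and 2.61 in 2D. Alb gave -0.17 and 0.76. The cell cycle genes thus shared the direction of 5 of the 6 growth-type carriers. Their medians were -1.29 in iHep-1 and -4.33 in iHep-2, beside -1.10 and -2.18 for the growth-type carriers. The part of the cell cycle in the carrier values was not tested.

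**Figure D5:**
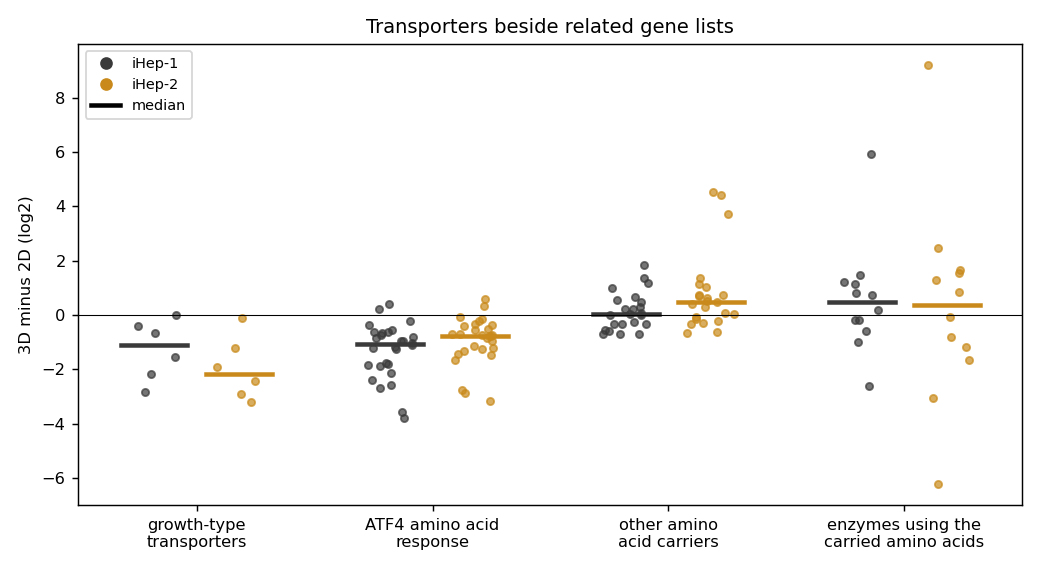
Difference between 3D and 2D (log2, y axis) of each tested gene in 4 lists, with iHep-1 dark and iHep-2 orange, 1 point per gene and a bar at the median. The growth-type carriers and the ATF4 response genes have medians below 0 in both experiments. The other carriers have medians of 0.02 in iHep-1, near the -0.02 of all genes, and 0.46 in iHep-2. The enzymes have 0.46 and 0.38. With spike-in scaling the other carriers have -1.65 and -0.07 and the enzymes -1.21 and -0.15, beside -1.69 and -0.49 for all genes.

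Promoter windows of 250 bases before a RefSeq transcript start (GRCm38.p6) were found for 5 of the 10 genes, with 8 windows in all. Shown are the outermost windows of Slc7a1, lower in 3D, and of Slc38a4, higher in 3D of iHep-1, with matches of GGGCGG or its reverse complement in capitals, both on the minus strand of the genome, written 5′ to 3′.
Slc7a1, chr5:148399905-148400154: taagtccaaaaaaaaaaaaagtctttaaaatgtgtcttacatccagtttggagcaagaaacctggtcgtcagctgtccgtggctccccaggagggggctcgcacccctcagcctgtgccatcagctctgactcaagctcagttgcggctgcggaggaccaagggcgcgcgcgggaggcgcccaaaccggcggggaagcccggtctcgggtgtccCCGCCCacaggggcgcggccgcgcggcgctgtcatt
Slc38a4, chr15:97055957-97056206: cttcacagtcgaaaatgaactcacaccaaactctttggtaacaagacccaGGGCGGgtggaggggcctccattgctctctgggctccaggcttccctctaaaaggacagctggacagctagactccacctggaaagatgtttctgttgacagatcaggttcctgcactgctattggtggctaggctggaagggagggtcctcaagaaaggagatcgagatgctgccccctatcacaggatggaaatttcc

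The windows of these genes were searched on both strands for TGATGNAA, a form of the element that ATF4 binds with C/EBP partners, and for CACGTG, the E-box. Neither matched any of the 8 windows, where 3.45% and 6.02% of all 32851 windows hold them. After that result, GGGCGG, the GC box, and GTTAAT, a core of the HNF1 site, were added. GTTAAT matched none (6.43% of all windows). GGGCGG matched 1 window each of Slc7a1, Slc3a2, Slc38a2 and Slc7a8 and 2 of Slc38a4, and 32.7% of all windows hold it. The Slc7a1 window was 62.4% G or C and that of Slc38a4 52.8%. These matches are descriptions of letters in a window, and no match says only that those letters are not there.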

How the data were processed

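Total RNA was amplified and labelled with Cy3 and hybridised to 1-colour Agilent arrays of 1 design (4 arrays on 1 slide, scanned at 1 time), per the labels' protocols and the file headers. The deposited scanner files give each spot's intensity on a linear scale, as read by Agilent Feature Extraction. The submitters' processing notes name version 9.5.1.1, the file headers 10.7.1.1, and nothing settles which applies. Probe positions are on mm9, per the file headers. The authors' deposited series table holds linear intensity values with equal distributions within each experiment (medians 26.29 for iHep-1 and 22.58 for iHep-2). It served as an alternative, and its making is not described.

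The processed signal was put on the log2 scale relative to the 75th percentile of an array's noncontrol spots. Spots marked as outliers were left out (72 to 85 per array), no spot was saturated, and spots of a probe were averaged. A probe with several spots counted as well above background when most unmarked spots did. Kept were probes that 2 or more of the 4 arrays had well above background, and each gene was represented by its brightest kept probe. Two-sided tests used limma 3.58.1 (R 4.3.3) with Benjamini-Hochberg adjustment over 16450 genes. The fit between cultures had no block, and the fit between experiments had culture as a term. The array number limits the precision. The design text names iHep-1 and iHep-2 as experiments that each gave both cultures, so the numbers pair the arrays, and their deviations from the group means correlated across genes (r = 0.66).

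The limma fit was first run on simulated arrays with known changes, at the spread of these arrays and at a much smaller spread. Only the run at the smaller spread had to recover its changes. It checks the code and not what these arrays can detect. The 10 genes, the lists and the tests were chosen with earlier results of these data known. Named were all 10 genes with every probe, up to 4 genes per other list by the largest smaller difference of equal sign, 3 nearest genes each for Slc7a5 and Slc38a4, and Alb, Mki67, Atf4 and Asns. Leading genes of the marker lists are not reported by name, apart from Pdgfra and Col1a2 of the fibroblast markers. RefSeq supplied the promoter windows and gene order (GRCm38.p6), with no coordinates moved between builds. Alternatives covered background correction (normexp with an offset of 50 units), scaling, filter, probe choice, prior, block and each array left out.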

Additional observations from a re-analysis of the deposited data

Results flagged for a closer look

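Results were listed here when the experiments went in opposite directions between 3D and 2D, and the difference between the experiments was not tested in any of them. All differences are log2, 3D minus 2D, given for iHep-1 and then iHep-2.

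The 5 probes of Slc38a1 were near 0 or above in iHep-1 and below 0 in iHep-2. The brightest, A_51_P507053, gave 0.0088 and -1.21, A_51_P133005 gave 0.11 and -1.04, and A_51_P489788 gave 0.10 and -1.17. The other 2, A_52_P232648 and A_52_P430462, gave 0.24 and -1.08, and 0.13 and -1.39. With spike-in scaling all 5 were below 0 in both experiments.

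For Slc38a2, the probe A_52_P459046 gave -0.87 and 0.24, where the gene's brightest probe gave -0.65 and -0.62. Alb gave -0.17 and 0.76.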

How the results depend on the processing

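The limits are 2 arrays per culture, dim signals of Slc38a4 and Slc7a8 in iHep-2, and 5 genes with 1 probe. Slc7a1, Slc7a3, Slc7a5, Slc1a5, Slc38a2 and Slc7a8 kept the direction of their mean difference between 3D and 2D in every alternative that gave a value, but not its size: Slc1a5 was -2.84 without 2D of iHep-1 and -0.25 without 2D of iHep-2, and Slc7a8 3.38 and 0.29 in these cases, 2.92 without 3D of iHep-2, 0.75 without 3D of iHep-1 and 0.84 with normexp. The experiment as a replicate block left 0 genes called higher and 0 lower in 3D (smallest adjusted p 0.125, and among the transporters 0.193 for Slc7a3 and 0.216 for Slc7a5) and changed no call. With an intensity trend and robust prior added to that block, 19 genes were higher in 3D. Spike-in scaling gave 76 genes higher and 216 lower in 3D, Slc7a3 at -4.14 (adjusted p = 0.0025, range 0.0025 to 0.991) and Slc7a5 at -3.63 (adjusted p = 0.016, range 0.016 to 0.991). This scaling gave a growth-type median of -2.74, a hepatic median of -0.58 and 0 transporters higher in both experiments, beside a median of -1.08 for all genes.

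The median of the hepatic pair, 0.52 as reported, was not stable. It was 0.11 with normexp, turned to -0.58 with spike-in scaling and to -0.27 when probes had to be well above background on all 4 arrays, where also 0 transporters were higher in both experiments because Slc38a4 and Slc7a8 drop out. With each array left out in turn it ran from -0.81 to 1.85: -0.67 without 3D of iHep-1, -0.81 without 2D of iHep-2, 1.72 without 3D of iHep-2 and 1.85 without 2D of iHep-1. The growth-type median ran from -2.49 to -1.38, with the lower end without 2D of iHep-1. Leaving out an array unbalances the experiments. Slc3a2 turned to 0.28 without 3D of iHep-1 and 0.14 without 2D of iHep-2, Slc38a4 to -0.65 and -0.90 in these 2 cases. Slc38a1 turned to 1.32 without 3D of iHep-2 and 0.71 without 2D of iHep-1, and Slc7a2 to 0.17 and 0.18. Over the 4 omissions Slc38a1 ran from -2.52 to 1.32, Slc7a2 from -0.71 to 0.18, Slc38a4 from -0.90 to 3.53 and Slc3a2 from -0.81 to 0.28. Slc7a3 ran from -4.65 without 2D of iHep-1 to -1.42 without 2D of iHep-2.

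Between experiments, the counts of 141 higher and 162 lower in iHep-2 became 360 and 345 with normexp, 465 and 449 with spike-in scaling, 76 and 67 with the stricter filter, 223 and 264 with no filter, 278 and 293 with the trend and robust prior, and 21 and 33 with no replicate block (culture left out as a term). The authors' series table gave 249 lower. Without the culture term Slc7a3 (adjusted p = 0.566) and Slc38a4 (adjusted p = 0.128) missed the threshold, and Slc38a4 also with normexp (-0.76), while the stricter filter removes Slc38a4. Slc38a1 passed with normexp (-3.05), spike-in scaling (-3.13), no filter and the trend prior (both -3.24), and Slc7a8 with spike-in scaling (-2.53), where normexp gave it -0.91 (adjusted p = 0.128). The spike-in p-values here also imply a standard error common to all the transporters and do not measure each gene's own spread. Slc38a2 turned to -0.056 in the series table. Without an array this comparison has no residual degrees of freedom and gives values with no test. Apart from what the filters, the dropped arrays and the 50 units added by normexp make by construction, the cause of these changes was not tested.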
